A study of Rattus norvegicus with 4 samples.

Results

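Transcripts of Testin, 7 cathepsins and lysosomal acid lipase were measured in the testis of young male Sprague Dawley rats, an outbred laboratory strain, after follicle-stimulating hormone (FSH) had been suppressed with an antibody. The genes were chosen by name, with the antibody and control values of these arrays already known, and Testin, Ctsl and Lipa had been among the genes picked out by that comparison. Those values are therefore given here as a description. The 9 genes, of 4737 named on the array, were represented by 14 of the 8799 probe sets on the array, each carrying exactly 1 gene symbol, and all 14 are shown. One group received a sheep antibody raised against rat FSH and the other a control sheep immunoglobulin (IgG), each for 4 days, and both groups were otherwise alike in strain, sex and tissue. Each group had 2 RNA samples, each hybridised to 1 Affymetrix rat U34 array of set A. The labels do not agree on age. Source names and the start of injection in the protocol give day 18 after birth, the protocol gives day 22 for collection, the series design gives day 14, and postnatal day 4 stands in the title of antibody replicate 2 where the treatment should be. That array was placed by its source name. The protocol also states that about 20 organs, which it calls ovaries, were pooled for each RNA sample, while each source name gives testis from 1 rat. Statistics over these arrays therefore measure the spread between RNA samples, and the number of animals behind each sample is not settled.

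Cathepsins are proteases that work mostly in lysosomes, the acidic compartments in which cells digest material taken up from outside or from their own cytoplasm. Most are cysteine proteases of the papain type, made as inactive precursors that lose a propeptide in the acidic compartment, and several can also be secreted. In the testis, Sertoli cells, the somatic cells that nurse the germ cells and carry the FSH receptor, digest residual bodies and dying germ cells and secrete proteins into the tubule. Testin is a Sertoli cell secretory protein related to cathepsin L in sequence, in which the active-site cysteine is replaced, and it is known from cell junctions and not as a protease. It is a different gene from Tes, whose protein product is also called testin. Lysosomal acid lipase, encoded by Lipa, frees cholesterol and fatty acids from the esters that enter the lysosome.

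Testin and Ctsl lie on the same chromosome, 17, in the RefSeq gene table of assembly GRCr8. Testin stands in a run of 17 successive protein-coding genes, of which 14 bear cathepsin names. The ends of the run were set by a rule that admitted cathepsin names and, by choice, Tpbpa and Ctla2a. The run includes Ctsm, Cts7, Cts8, Ctsr, Ctsq and Ctsj, cathepsins known from the rodent placenta. The immediate neighbours of Testin in it are Ctla2a, whose product resembles a cathepsin propeptide, and Ctsll3. Ctsl itself lies outside the run, with 22 protein-coding genes between them. Whether the probes of the Testin probe set also match its relatives in this run was not tested, because probe sequences were not used here.

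RefSeq promoter windows of GRCr8, each reaching from 250 bases before to 50 bases after a transcript start, were matched by symbol for 8 of the 9 genes. There was no match for Ctsb. The 250 bases before the start are shown 5′ to 3′ for the 3 genes with the higher values after the antibody, Testin (chr17:3852259-3852508, plus strand), Ctsl (chr17:769854-770103, plus strand) and Lipa (chr1:241470741-241470990, minus strand), and for Ctsd (chr1:206968822-206969071, minus strand), where motif matches were found. Capitals mark matches to the motifs CACGTG or TCACGTGA. The Testin window lies inside the span that the gene table gives for the gene.

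Testin: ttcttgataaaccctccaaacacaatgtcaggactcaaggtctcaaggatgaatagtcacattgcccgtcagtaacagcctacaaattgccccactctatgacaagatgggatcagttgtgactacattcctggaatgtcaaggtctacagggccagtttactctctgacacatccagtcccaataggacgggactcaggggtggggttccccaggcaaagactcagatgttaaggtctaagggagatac

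Ctsl: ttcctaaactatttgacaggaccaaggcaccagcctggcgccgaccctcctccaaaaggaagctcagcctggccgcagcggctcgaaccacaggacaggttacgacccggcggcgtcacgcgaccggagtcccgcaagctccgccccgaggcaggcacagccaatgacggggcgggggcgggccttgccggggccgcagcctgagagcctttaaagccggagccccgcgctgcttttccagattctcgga

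Lipa: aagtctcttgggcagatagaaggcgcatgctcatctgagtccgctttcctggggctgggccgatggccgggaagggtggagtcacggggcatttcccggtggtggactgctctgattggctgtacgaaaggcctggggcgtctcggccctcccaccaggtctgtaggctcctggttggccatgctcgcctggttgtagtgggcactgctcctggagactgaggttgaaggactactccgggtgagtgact

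Ctsd: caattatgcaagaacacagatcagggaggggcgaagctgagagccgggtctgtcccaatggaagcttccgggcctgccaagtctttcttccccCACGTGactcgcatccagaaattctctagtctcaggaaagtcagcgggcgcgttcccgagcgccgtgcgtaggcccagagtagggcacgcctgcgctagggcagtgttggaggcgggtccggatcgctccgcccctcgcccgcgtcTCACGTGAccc

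CACGTG is the core of the element bound by TFEB, a transcription factor of lysosomal genes, and TCACGTGA is a longer form that contains it. On either strand, CACGTG was found in 6.42% of all 33469 windows and TCACGTGA in 0.777%. Of the 8 member windows only that of Ctsd held them, with CACGTG beginning at positions -157 and -10 from the transcript start, the latter inside a TCACGTGA beginning at -11. Among other lysosomal genes, CACGTG was found in 5 of 28 windows of hydrolases and their activators and in 6 of 25 windows of membrane, proton pump and delivery genes. The full cAMP response element TGACGTCA, the site of the factor CREB that acts downstream of the FSH receptor, was in 0 of the 8 member windows and in 1.83% of all windows. Its part TGACGT was in the Ctsh window alone, at position -219, and in 7.94% of all windows. The Testin window had a GC content of 47.0%, below the median of 51.7% over all windows, while those of Ctsl (66.7%), Lipa (63.3%) and Ctsd (63.0%) were above it. The windows of Testin, Ctsl and Lipa thus shared none of the motifs searched, which says only that these letters are not in these stretches.

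The deposited value of a probe set is a linear intensity, which cannot be compared between probe sets because each has its own probes. Groups are given as mean ± SD with n = 2 arrays, and differences are the antibody minus the control mean of log2(intensity + 16) ± SE from a limma fit over all 5244 probe sets bright enough to be tested. The added constant makes these differences smaller than the plain ratio for dim probe sets. Of the 14 member probe sets, 13 passed the filter on dim values, covering all 9 genes. Of these 13, 1 passed the adjusted threshold of 0.05 over the whole table (Benjamini-Hochberg), where 0.267% of all tested probe sets did (14 probe sets). The arrays of the treatments did not overlap for 9 of the 13, against 37.4% of all tested probe sets. They were higher after the antibody for 6 (background 21.9%) and lower for 3 (background 15.5%). Since the genes were chosen with this comparison known, nothing is read from these counts. The median difference was 0.22 over the 13 and 0.03 over all tested probe sets.

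**Figure D1:**
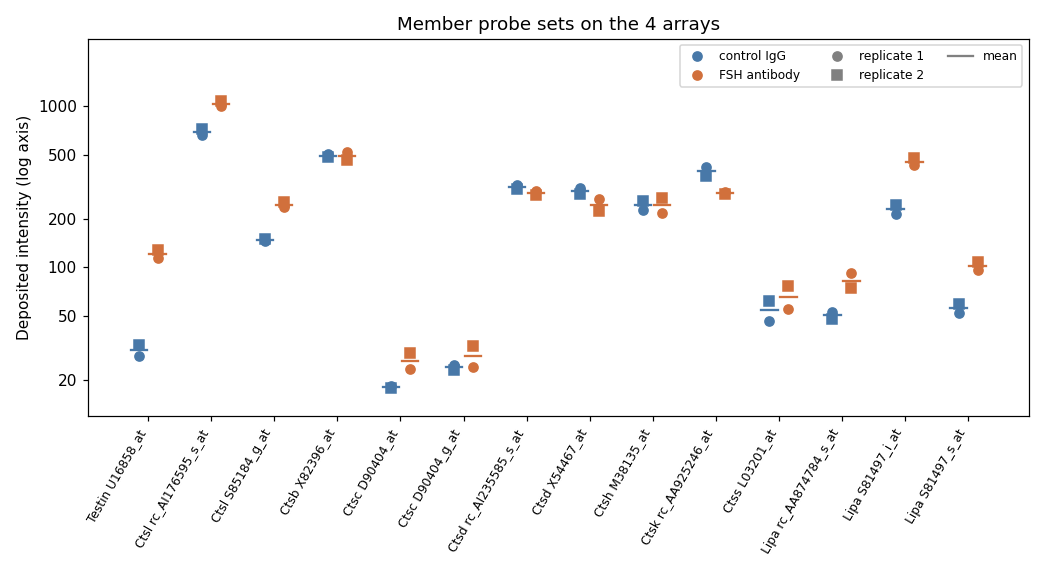
Deposited intensity (log axis) of the 14 member probe sets on the 4 arrays; blue is control IgG, orange is FSH antibody, circles are replicate 1, squares replicate 2 and lines the mean of n = 2. The orange points lie above the blue ones without overlap for Testin, both Ctsl and all 3 Lipa probe sets and the dim, untested Ctsc D90404_at, and below them for Ctsk and both Ctsd probe sets. Levels are not comparable between probe sets.

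Testin had the largest difference of the group. Its probe set, U16858_at, read 28.2 and 33.1 in the controls, and 114 and 128 after the antibody. Both antibody arrays thus stood far above both control arrays, and the arrays within each treatment lay close together. The means were 30.7 ± 3.46 and 121 ± 9.55, a ratio of 3.95, and the log2 difference was 1.56 ± 0.18. It was the member that passed the threshold over the whole table, and its difference was the 4th highest of the 5244. The pass was lost with quantile normalization, without the filter on dim probe sets, without moderation of the variances, and without control replicate 1 or control replicate 2. With 1 array left out the difference stayed between 1.48 and 1.63. In whole testis RNA, more cells of a type and more RNA per cell cannot be told apart.

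The Sertoli cell markers on the array did not all stand higher beside Testin. Of 18 genes listed, 13 were on the array and 12 were tested, of which 8 had positive and 4 negative differences, with a median of 0.08 against 0.03 over all 3164 genes tested. It turned to -0.03 when control replicate 2 was left out, and leaving out antibody replicate 2 gave 0.0023. By limma 0 of their 17 tested probe sets passed, and 3 had an unadjusted p under 0.05, as did 8.1% of all tested probe sets, the share against which such counts are given below. Their summed intensity was 12769 to 13631 on the control arrays and 12309 to 13317 on the antibody arrays, and none was listed at 0. Most of each sum came from 2 genes, Clu (6440 to 7459 on the 4 arrays) and Aard (2609 to 3024). Amh, the anti-Müllerian hormone of immature Sertoli cells, read 544 and 498 in the controls and 754 and 758 after the antibody (0.52 ± 0.16). Inha, the inhibin alpha subunit, and Shbg, the androgen-binding protein, read lower, with differences of -0.90 ± 0.19 on the brightest Inha probe set and -0.66 ± 0.16. The second Inha probe set gave -0.49 ± 0.24. None of these passed the adjusted threshold, and the part of Sertoli cell number in the Testin values was not tested.

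Ctsl encodes cathepsin L, a cysteine endopeptidase that Sertoli cells also secrete. Its brighter probe set, rc_AI176595_s_at, read 664 and 722 in the controls, against 997 and 1068 after the antibody. The second, S85184_g_at, read 145 and 150 in the controls and 236 and 255 after the antibody. On both probe sets each antibody array was above each control array, and the arrays of a treatment differed little. The log2 differences were 0.56 ± 0.16 and 0.67 ± 0.17, and the ratios of the means were 1.49 and 1.66. Neither passed the threshold over the whole table. The probe sets carry different source accessions. A further probe set, S85184_at, picked out after its values were seen, shares the stem of its name with the second but is unnamed in the annotation. It read 54.7 and 61.6 in the controls and 101 on both antibody arrays (0.66 ± 0.17). The difference in Ctsl was smaller than that in Testin on every probe set of both genes, a contrast that was not tested.

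Lipa was higher after the antibody on all 3 of its probe sets. On the brightest, S81497_i_at, the controls read 215 and 243 and the antibody arrays 431 and 475, so that the means of 229 ± 19.4 and 453 ± 31.1 stood in a ratio of 1.98 (log2 difference 0.94 ± 0.17). S81497_s_at, made from the same accession, read 52.6 and 59.3 in the controls and 97.0 and 108 after the antibody (0.72 ± 0.18). The third, rc_AA874784_s_at, gave the smallest of the Lipa differences. It read 53.1 and 47.9 in the controls and 91.9 and 74.2 after the antibody (0.57 ± 0.19). The Lipa probe sets sharing an accession are not independent readings. S81497_i_at did not pass the threshold in the main fit, but did with the replicate number as a block. With 1 array left out its difference stayed between 0.85 and 1.02.

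**Figure D2:**
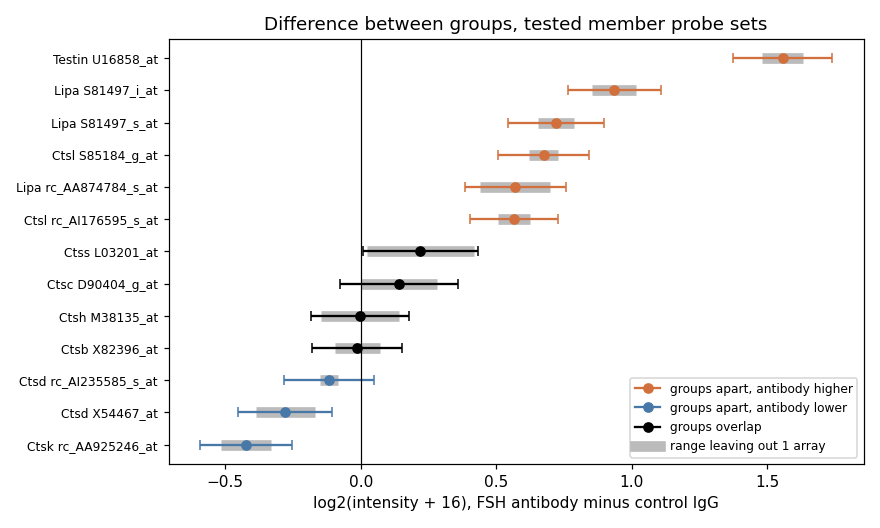
Log2 difference, antibody minus control, of the 13 tested member probe sets, with bars of 1 SE and grey bands for the range when 1 of the 4 arrays is left out. Orange marks groups apart with the antibody higher, blue groups apart with the antibody lower, and black overlapping groups. Testin stands at 1.56, the Lipa and Ctsl probe sets between 0.56 and 0.94, and the rest between -0.42 and 0.22.

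The other cysteine endopeptidases among the members were Ctsb, Ctsk and Ctss. Ctsb encodes cathepsin B, an abundant lysosomal protease that also trims dipeptides from the end of its substrates. It read 504 and 483 in the controls and 518 and 460 after the antibody. The groups overlapped, and the difference of -0.01 ± 0.17 changed sign with the array left out and with quantile normalization. Ctsk encodes cathepsin K, the collagen-cleaving enzyme best known from osteoclasts. It read 419 and 367 in the controls and 293 and 283 after the antibody, so both antibody arrays were lower. The means were 393 ± 36.5 and 288 ± 7.07, and the difference of -0.42 ± 0.17 was the most negative of the members but did not pass. Ctss, on chromosome 2 like Ctsk, encodes cathepsin S, which processes the invariant chain in antigen-presenting cells. It read 46.4 and 62.2 in the controls and 55.0 and 77.2 after the antibody (0.22 ± 0.21; 0.02 to 0.42 with 1 array left out). The Ctss groups overlapped, and its arrays differed from each other within both treatments by more than those of any other tested member.

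Ctsh and Ctsc cut from the ends of proteins. Ctsh encodes cathepsin H, an aminopeptidase, and read 228 and 259 in the controls and 218 and 269 after the antibody. Its groups overlapped with nearly equal means, 243 ± 22.1 and 244 ± 36.4, and the sign of the log2 difference (-0.0031 ± 0.18) depended on the array left out and on quantile normalization. Ctsc encodes cathepsin C, the dipeptidyl peptidase that activates serine proteases of immune granules. Its probe sets were the dimmest of the group. D90404_g_at read 24.9 and 23.2 in the controls and 24.1 and 32.6 after the antibody (0.14 ± 0.22), with overlapping groups and a difference of 0.0021 to 0.28 with 1 array left out. D90404_at, below the filter and not tested, read 18.5 and 18.0 in the controls and 23.4 and 29.4 after the antibody, both above the controls, with a ratio of means of 1.45.

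Ctsd encodes cathepsin D, which is an aspartic and not a cysteine protease. On X54467_at it read 312 and 286 in the controls and 264 and 225 after the antibody (-0.28 ± 0.17). On rc_AI235585_s_at it read 322 and 307 in the controls and 296 and 281 after the antibody (-0.12 ± 0.16). Both probe sets were lower on each antibody array, by differences within 2 SE of 0. Among the members whose tested arrays did not overlap, Testin, Ctsl and Lipa were thus on one side and Ctsk and Ctsd on the other, and of these only the Testin difference passed the table-wide threshold.

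**Figure D3:**
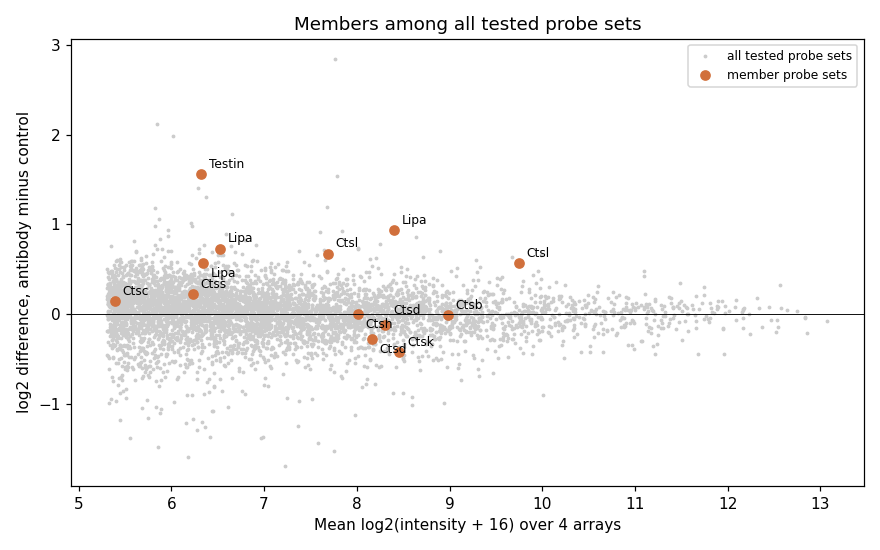
Log2 difference, antibody minus control, against the mean log2(intensity + 16) over the 4 arrays for all 5244 tested probe sets (grey) and the 13 tested member probe sets (orange, labelled by gene). Testin lies near the upper edge at 1.56, the Lipa and Ctsl probe sets lie above most probe sets of like intensity, and the others lie within the grey cloud.

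The spread between arrays of the same treatment is given as a description, since a choice made on this comparison favours genes with a small spread. For the 13 tested member probe sets the log2 gap between replicates had a median of 0.12 in the controls (range 0.04 to 0.33) and 0.14 after the antibody (range 0.05 to 0.39). Over all tested probe sets the medians were 0.19 and 0.20. The Testin gaps were 0.15 and 0.14, far below the difference between its groups. The largest gaps were those of Ctss, 0.33 and 0.39, which exceeded its difference between groups of 0.22. The smallest gap in the controls was that of Ctsl on S85184_g_at (0.04), and the smallest after the antibody was that of Ctsk (0.05).

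The probe sets whose values ran most like Testin over the 4 arrays were ranked by the Euclidean distance between log2 values, each centred on its own mean, among 4329 tested probe sets of other named genes. The nearest were Foxq1, a forkhead factor, at 0.32, and Igfbp3, a binding protein of insulin-like growth factors, at 0.58 on 1 of its probe sets. They were followed by Edn1, endothelin 1, at 0.58, Gsta3, a glutathione transferase, at 0.72, and Cxcr1, a chemokine receptor, at 0.72. Foxq1 read 35.6 and 37.7 in the controls and 120 and 109 after the antibody. With 4 arrays this ranking mostly follows the size of the difference between groups. Among the members, Lipa S81497_i_at was nearest to Testin, at 0.62 with 3 other probe sets closer, and Ctsl S85184_g_at was at 0.89 with 14 closer. Ctsk was at 2.00, with 4032 closer. Ctsj, the relative of Testin from the same run of genes and picked out after its values were seen, was below the filter. It read 13.8 and 11.1 in the controls and 29.4 and 17.4 after the antibody.

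Other genes of the lysosome were read from lists. For hydrolases and their activators, 11 of 40 listed genes were on the array and 10 were tested. By limma 0 of their 13 probe sets passed, with 2 at an unadjusted p under 0.05. Differences were positive for 7 genes and negative for 3, with a median of 0.07 against 0.03 over all genes tested (0.14 without control replicate 1, -0.02 without control replicate 2, -0.03 without antibody replicate 1). The 3 with the smallest p were those with negative differences. Fuca1, the lysosomal fucosidase, read 689 and 916 in the controls and 480 and 489 after the antibody (-0.69 ± 0.18). Gm2a, the activator protein for ganglioside breakdown, read 260 and 294 in the controls and 200 and 132 after the antibody (-0.71 ± 0.21). Ppt1, which removes palmitate from proteins, gave -0.27 ± 0.18. In these 3 the antibody arrays were below both controls (background 15.5% of all tested probe sets). The differences of the other 7 ran from 0.05 to 0.28. In 2 of those 7, Asah1 and Man2b1, the antibody arrays were above both controls on the brightest probe set (background 21.9%). Psap, whose product is split into sphingolipid activators, was at 0.05 ± 0.20 on its brightest probe set, by which it is counted, and at -0.21 ± 0.16 and -0.16 ± 0.16 on the others. Gaa, the acid glucosidase, was at 0.08 ± 0.19.

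For the lysosomal membrane, proton pump and enzyme delivery, 15 genes of 30 were on the array and tested. By limma 0 of their 25 probe sets passed, and 0 had an unadjusted p under 0.05. Differences were positive for 5 genes and negative for 10, from -0.26 to 0.32. The median was -0.09, and 0.0016 without control replicate 1, -0.03 without antibody replicate 1 and -0.02 without antibody replicate 2. The membrane glycoproteins Lamp1 and Lamp2 each had several probe sets. Lamp1 gave 0.08 ± 0.16 on the brightest and -0.18 ± 0.18 and -0.19 ± 0.25 on the other tested ones. For Lamp2 the brightest gave -0.01 ± 0.17, a further one -0.23 ± 0.18 and the last -0.0015 ± 0.27. Scarb2, the receptor that carries glucocerebrosidase to lysosomes, had differences of 0.32 ± 0.20 and 0.34 ± 0.20. The proton pump subunits Atp6v1b2 and Atp6v1c1 gave -0.25 ± 0.18 and -0.24 ± 0.17. Igf2r, which delivers enzymes tagged with mannose 6-phosphate, gave 0.21 ± 0.17.

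Cystatins and kininogens, the protein inhibitors of cysteine cathepsins, were represented by 4 of 14 genes. Among their 7 probe sets 0 passed by limma, and 0 had an unadjusted p under 0.05. Cst3, the secreted cystatin C, read 1055 and 1100 in the controls and 1237 and 1253 after the antibody on its brightest probe set (0.21 ± 0.16). Its second probe set gave -0.02 ± 0.17, with overlapping groups. Cstb, the cytosolic cystatin B, gave -0.03 ± 0.17 and -0.05 ± 0.17, and Cst8, a cystatin of the reproductive tract, -0.17 ± 0.19 and -0.13 ± 0.18.

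Of 16 other lipases and genes of cholesterol ester handling, 11 were on the array and 4 bright enough to test. Among 8 probe sets 0 passed by limma, with 2 at an unadjusted p under 0.05, both of them of Scarb1. Scarb1, the receptor that takes up cholesterol esters from HDL, read 349 and 298 in the controls and 233 and 289 after the antibody on its brightest probe set (-0.30 ± 0.18). Its others gave -0.56 ± 0.18 and -0.79 ± 0.18, so all 3 were negative. The hormone-sensitive lipase Lipe gave 0.13 ± 0.17 and 0.07 ± 0.22, and the lipoprotein lipase Lpl 0.46 ± 0.27 and 0.25 ± 0.32, with overlapping Lpl groups. In the list of Leydig cell markers, which also holds Scarb1, 1 of 13 probe sets passed by limma and 8 had an unadjusted p under 0.05. The one that passed was of Star, the cholesterol transporter of mitochondria. It read 75.9 and 86.2 in the controls and 25.5 and 12.8 after the antibody (-1.49 ± 0.23). The other Star probe set gave -1.38 ± 0.25. No probe set of this list passed with quantile normalization, median centring, a constant of 1, no filter, the 60th percentile filter or no moderation, nor without control replicate 1 or control replicate 2. The electron carrier Fdx1 gave -0.93 ± 0.19 and -0.64 ± 0.22, and the side-chain cleavage enzyme Cyp11a1 0.52 ± 0.21. Over the 7 Leydig genes tested 5 differences were negative, and the median was -0.22 (-0.14 without control replicate 1, -0.37 without control replicate 2). That median is the value of Lhcgr on its brightest probe set (-0.22 ± 0.20). Its other tested probe sets gave 0.46 ± 0.18 and 0.24 ± 0.21, so its sign depends on the probe set. With the mean over the probe sets of a gene the median of the list was -0.17.

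**Figure D4:**
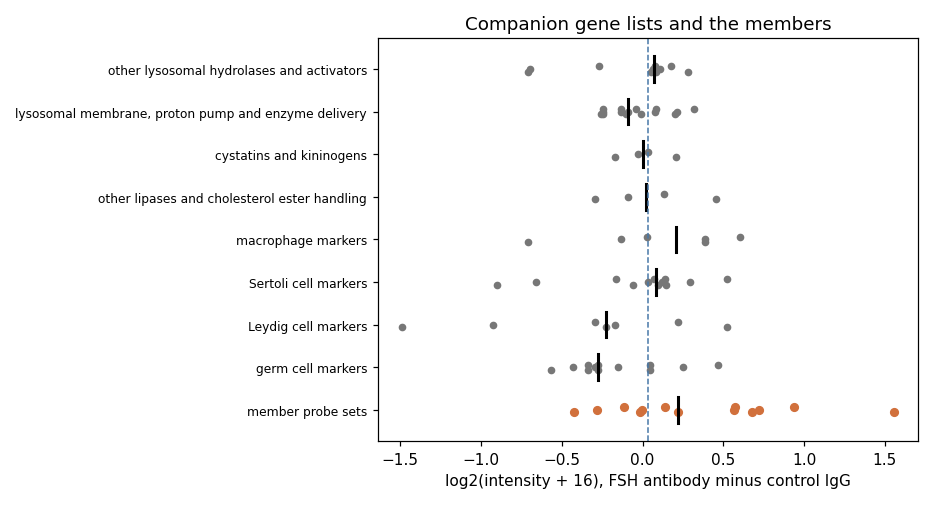
Log2 difference, antibody minus control, of each tested gene (grey, brightest probe set) in the 8 lists and of the 13 member probe sets (orange); black bars are medians and the dashed line is the median of all 3164 genes tested, 0.03. The lysosomal, inhibitor and lipase lists have medians between -0.09 and 0.07. Those of the cell type lists are 0.08 (Sertoli), 0.20 (macrophage), -0.22 (Leydig) and -0.27 (germ cell). The members, chosen with their values known, have a median of 0.22, taken over probe sets and not over genes.

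Macrophages carry abundant lysosomes and make Ctss, Ctsc and Lipa, so their markers were read beside these members. Of 19 genes listed, 10 were on the array and 6 were tested. By limma 0 of 9 probe sets passed, with 2 at an unadjusted p under 0.05. The summed intensity of the list was 385 to 428 on the control arrays and 436 to 510 on the antibody arrays, higher on both antibody arrays. This separation was narrow: the sums of the groups overlap when Lyz2 is left out, and also when Cd14 is left out. Differences were positive for 4 of the tested genes and negative for 2. No marker was listed at 0, but Csf1r and Itgam, the defining receptors on the list, read at most 19.4 and 7.60 on any array, below the filter. Lyz2, lysozyme, read 100 and 62.8 in the controls and 121 and 138 after the antibody (0.60 ± 0.22), and Cd14, an endotoxin receptor, gave 0.39 ± 0.19 and 0.30 ± 0.23. The complement gene C1qb differed between its probe sets, with -0.71 ± 0.23 for the brighter and 0.06 ± 0.26 for the dimmer. The median over the 6 genes was 0.20 (0.36 without antibody replicate 1, 0.14 without antibody replicate 2, 0.13 with a constant of 64). Without the filter, which brings in the dim genes, it was 0.07. The part of macrophage RNA in the values of Ctss, Ctsc and Lipa was not tested.

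Germ cell markers were read in the same way. Of 17 genes listed, 14 were on the array and 12 tested, and their intensities summed to 1991 and 2989 in the controls, against 2320 and 1642 after the antibody. Among 15 probe sets 0 passed by limma, and 0 had an unadjusted p under 0.05. The median difference was -0.27, but -0.05 without antibody replicate 2, -0.11 without control replicate 2 and -0.45 without antibody replicate 1. Ddx4, the germ cell helicase, read 294 and 325 in the controls and 276 and 211 after the antibody (-0.34 ± 0.19). Crem, a cAMP-responsive factor of germ cells, had differences of -0.34 ± 0.17, -0.45 ± 0.21 and -0.39 ± 0.23 over 3 probe sets. Adam2, a sperm surface protein, gave 0.46 ± 0.26. Some markers differed widely between arrays of the same treatment. Ldhc read 41.6 and 334 in the controls and 144 and 41.3 after the antibody. Hspa2 read 150 and 506 in the controls and 358 and 143 after the antibody. The summed germ cell signal overlapped between treatments, and its part in the values of the members was not tested.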

How the data were processed

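Gene expression was measured in testis RNA on 4 arrays, grouped by the labels' source names. Each array holds a deposited linear intensity per probe set. How the authors computed and background-corrected it is not given in the sources used here. The mean of the deposited intensities without the lowest and highest 2% was 125 on every array, so the arrays had been scaled before deposit, and no further normalization was applied. No detection calls were used, so signal over background is unknown, and the number of arrays limits the precision.

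Symbols came from the platform annotation (7018 probe sets with 1 symbol, 308 with several, 1473 with none), of which 6994 were brought up to date by Entrez identifier from RefSeq's GRCr8 gene table. After removing 59 controls, log2(intensity + 16) values with a mean at or above the 40th percentile (5244 probe sets, a level of 5.31) were fitted with limma 3.58.1 in R 4.3.3 (lmFit, eBayes with intensity trend), two-sided, with Benjamini-Hochberg adjustment over all of them. Gene lists used the brightest probe set of a gene. Named were all member probe sets, from each list the genes with a passing probe set and the 3 with the smallest p, and the 5 genes nearest to Testin, while further genes of the lists were named as examples after their values were seen. The members and lists were chosen with earlier results of these data known. On 20 simulated data sets of this comparison (5244 probe sets, 200 changed) the fit recovered 71.4% of 2-fold and 99.5% of 4-fold changes, and 5.06% of calls were false. The simulated noise was normal, independent between arrays and drawn from the variance model of this same fit. These shares therefore hold under that model and that number of changes, and the shares for the real arrays are not known from them. Alternatives were other normalizations, constants, filters and variance models, leaving out each array, and the replicate number as a block. Protein sequences were not used here.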

Additional observations from a re-analysis of the deposited data

How the results depend on the processing

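All alternatives were planned. Of the 13 tested member probe sets, 11 kept their direction in every alternative in which they were tested. The exceptions were Ctsb (0.022 with quantile normalization, -0.097 to 0.070 with 1 array left out, above 0 without control replicate 1 or antibody replicate 2) and Ctsh (0.012 with quantile normalization, -0.15 to 0.14 with 1 array left out, above 0 without control replicate 2 or antibody replicate 1). Where the groups do not overlap, leaving out an array cannot turn the direction. Median centring or quantile normalization moved the median of all differences by less than 0.05.

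Against 14 passing probe sets, 0 passed with quantile normalization, no filter or no moderation (421, 702 and 352 at an unadjusted p under 0.05 by limma or its unmoderated fit), 4 with median centring, 39 with the replicate block, and 0 to 153 with 1 array left out. Of the members, 1 passed, against 0 with quantile normalization, no filter or no moderation, 2 with the replicate block (Testin and Lipa S81497_i_at), and 0 to 2 with 1 array left out. In 13 alternatives the Testin difference ran from 0.97 to 1.95, the ends set by the constants of 64 and 1, and it passed in 8. Whether the replicate numbers pair the samples is not settled. Deviations of same-numbered arrays correlated at 0.0024 over 5244 probe sets, a single summary that cannot exclude shared handling. Some array control probe sets read higher on replicate 2 in both groups, and others did not. AFFX_Rat_beta-actin_3_st read 47.9 and 89.0 in the controls and 55.5 and 98.0 after the antibody. AFFX_Rat_GAPDH_3_at read 1676 and 1671 in the controls and 1671 and 1526 after the antibody. Some control probe sets were apart between the treatments, in either direction. AFFX-BioB-5_at read 113 and 128 in the controls and 76.2 and 87.1 after the antibody. AFFX_Rat_Hexokinase_3_at read 81.2 and 83.3 in the controls and 97.0 and 94.6 after the antibody. AFFX-BioB-3_at overlapped, with 66.5 and 102 in the controls and 63.4 and 86.9 after the antibody. Leydig markers had 1 passing probe set, 0 with quantile normalization, median centring, a constant of 1, no filter, the 60th percentile filter or no moderation, 3 with the replicate block, and 0 to 4 with 1 array left out. Sertoli markers had 0, 1 with the replicate block, and 0 to 1 with 1 array left out. With 1 array left out there were 0 to 3 for germ cell markers and 0 to 1 each for macrophage markers, lipases and hydrolases. The fits with 1 array left out have 1 residual degree of freedom and take the spread of a group with a single array from the other group. Over all alternatives the medians of the Sertoli, hydrolase, membrane, cystatin and lipase lists took both signs. Otherwise the cause was not tested.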
